A study of Mus musculus with 20 samples.

Results

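RAS proteins are small membrane GTPases that pass growth factor signals to the RAF, MEK and ERK kinases. Active ERK induces genes that damp the same cascade, among them dual-specificity phosphatases that dephosphorylate ERK and Sprouty proteins that interfere with RAS activation, and it raises the ETS factors Etv4 and Etv5. The mRNA of these feedback genes is widely used as a readout of ERK output, and in the pancreas this cascade drives the change of acinar cells into duct-like cells and tumour growth. Described here are 9 genes given by symbol and not chosen by a measured value, though with earlier results of these data known. They are the RAS genes Hras and Nras, the phosphatase genes Dusp4, Dusp5 and Dusp6, the Sprouty genes Spry2 and Spry4, and Etv4 and Etv5. All 9 were found among the 20636 genes of the expression table, and all 9 were among the 16648 that passed the minimum level. A gene is said to pass where its limma p, adjusted over those 16648 genes, was below 0.05.

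Expression was measured by RNA sequencing of whole mouse pancreatic ductal adenocarcinomas that arose from acinar cells, in 3 genotypes of 5 tumours each. All mice carried Ptf1aCreER, a Cre recombinase that tamoxifen activates in acinar cells, and a Rosa26 LSL-tdTomato reporter on both alleles. KPT mice were in addition Trp53fl/fl, KAT mice were Cdkn2A-Arf fl/fl, and KPAT mice carried both pairs of floxed alleles. Tamoxifen (5 mg by gavage, on 3 days) was given at an age of 8 to 10 weeks, and the animals were kept until they became moribund, so the age at collection differed and is not given. Tumours are named below by genotype and by the number in their title (KPT 1 to KPT 5 and so on). In whole tumour RNA, fewer cells of a type and less RNA per cell cannot be told apart.

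The libraries held 14696138 to 26248484 reads, and the genotypes carry separate ranges of library numbers, so a batch in library making and genotype cannot be told apart. Trp53 stood at 22.7 to 26.3 in KPT and 32.9 to 57.2 in KPAT, the genotypes with the floxed gene, and at 99.0 to 148 in KAT. Cdkn2a ranged from 150.0 to 907 over all tumours and did not pass the test in any comparison. It stood at 216 to 335 in KPT, at 516 to 690 in KAT 1 to KAT 3 and at 150.0 and 161 in KAT 4 and KAT 5. In KPAT 1 and KPAT 2 it stood at 268 and 365, and in KPAT 3 to KPAT 5 at 713 to 907. Its value covers the whole gene, and the labels do not say which of its exons were floxed. The 8 ductal epithelium markers (Epcam, Krt8, Krt18, Krt19, Krt7, Cdh1, Sox9 and Muc1) were above 0 in every tumour. Their summed level ranged over 10805 to 18476 in KPT tumours, over 6773 to 11066 in KAT tumours and over 7582 to 10388 in KPAT tumours. The summed level of 8 fibroblast markers was 862 to 3894 in the KPT tumours, below all KAT (6138 to 9282) and all KPAT tumours (4834 to 13469). Between KAT and KPT, 4 of 8 ductal markers were lower and 8 of 8 fibroblast markers higher, and between KPAT and KPT 1 of 8 was lower and 5 of 8 higher.

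Promoter sequence was in the RefSeq table for 6 of the 9 genes (Hras, Nras, Dusp5, Dusp6, Spry2 and Etv5), and not for Dusp4, Spry4 and Etv4. Shown are Dusp5, Dusp6 and Spry2, whose levels varied together most closely among the feedback genes, and Hras, which differed between genotypes. The bases, 214 for Dusp5, 249 for Hras and 250 for the others, lie before the RefSeq start in GRCm38.p6 and outside the GENCODE gene model, 5′ to 3′ on the strand of the gene, at chr19:53528895-53529108 (+), chr10:99262981-99263230 (+), chr14:105896820-105897069 (-) and chr7:141194006-141194254 (-). Capitals mark matches to any of 4 motifs.
Dusp5: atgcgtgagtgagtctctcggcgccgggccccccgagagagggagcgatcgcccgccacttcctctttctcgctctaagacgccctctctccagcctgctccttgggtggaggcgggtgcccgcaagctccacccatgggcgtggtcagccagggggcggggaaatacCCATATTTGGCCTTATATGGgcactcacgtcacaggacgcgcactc
Dusp6: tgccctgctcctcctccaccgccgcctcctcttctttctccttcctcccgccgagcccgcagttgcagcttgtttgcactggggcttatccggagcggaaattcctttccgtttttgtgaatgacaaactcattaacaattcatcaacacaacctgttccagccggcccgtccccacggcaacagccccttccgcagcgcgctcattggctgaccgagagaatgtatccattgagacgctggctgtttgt
Spry2: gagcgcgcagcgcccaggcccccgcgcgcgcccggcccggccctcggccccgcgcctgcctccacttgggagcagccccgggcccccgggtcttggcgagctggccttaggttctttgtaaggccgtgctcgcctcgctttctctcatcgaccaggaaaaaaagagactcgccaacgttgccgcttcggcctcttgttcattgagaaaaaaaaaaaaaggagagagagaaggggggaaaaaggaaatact
Hras: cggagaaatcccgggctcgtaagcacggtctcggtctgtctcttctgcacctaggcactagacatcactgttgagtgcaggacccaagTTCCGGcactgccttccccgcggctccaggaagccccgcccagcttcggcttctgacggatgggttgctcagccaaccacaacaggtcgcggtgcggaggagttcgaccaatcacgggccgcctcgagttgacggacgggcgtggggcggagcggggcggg

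The motifs were CCGGAA, a form of ETS site, the AP-1 site TGANTCA, the cAMP response element TGACGTCA and the CArG box. Both strands were searched in the 250 bases before each RefSeq start. Dusp5 held 2 adjoining CArG boxes, CCATATTTGG at 82 to 73 bases and CCTTATATGG at 72 to 63 bases before the start. A CArG box, the sequence bound by serum response factor, was present in 1.47% of all 32851 promoter windows of that length. Hras held CCGGAA at 162 to 157 bases before the start, as TTCCGG on the strand shown, and 3952 of all 32851 windows held it. Neither Dusp6 nor Spry2 held any of the 4 as written. The shorter GGAA inside the ETS site was not searched for, and it occurs in the sequences shown of Dusp6 and Spry2. No match to the AP-1 site (6.75% of all windows) or the cAMP response element (1.55%) was found in the 6 genes. These matches are letters in a window and do not show binding.

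Levels are given as the authors' normalised read counts, where 1 unit corresponds to 19.5 reads in a library of average scaling. Divided by exon length in kb to compare genes, Dusp6 was the most abundant of the 9, at 57.7 ± 19.3 units per kb (mean ± SD, n = 15 tumours). Dusp4 followed at 39.2 ± 10.6, Etv4 at 38.8 ± 11.04 and Dusp5 at 33.1 ± 18.2 units per kb. Nras stood at 21.4 ± 2.53, Spry2 at 20.7 ± 5.66, Hras at 15.9 ± 5.05, Etv5 at 15.9 ± 4.90 and Spry4 at 5.43 ± 2.01 units per kb. Of the neighbours in this order, only Etv5 and Spry4 were farther apart than the larger of their SDs. All later levels are per gene, not per kb.

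**Figure D1:**
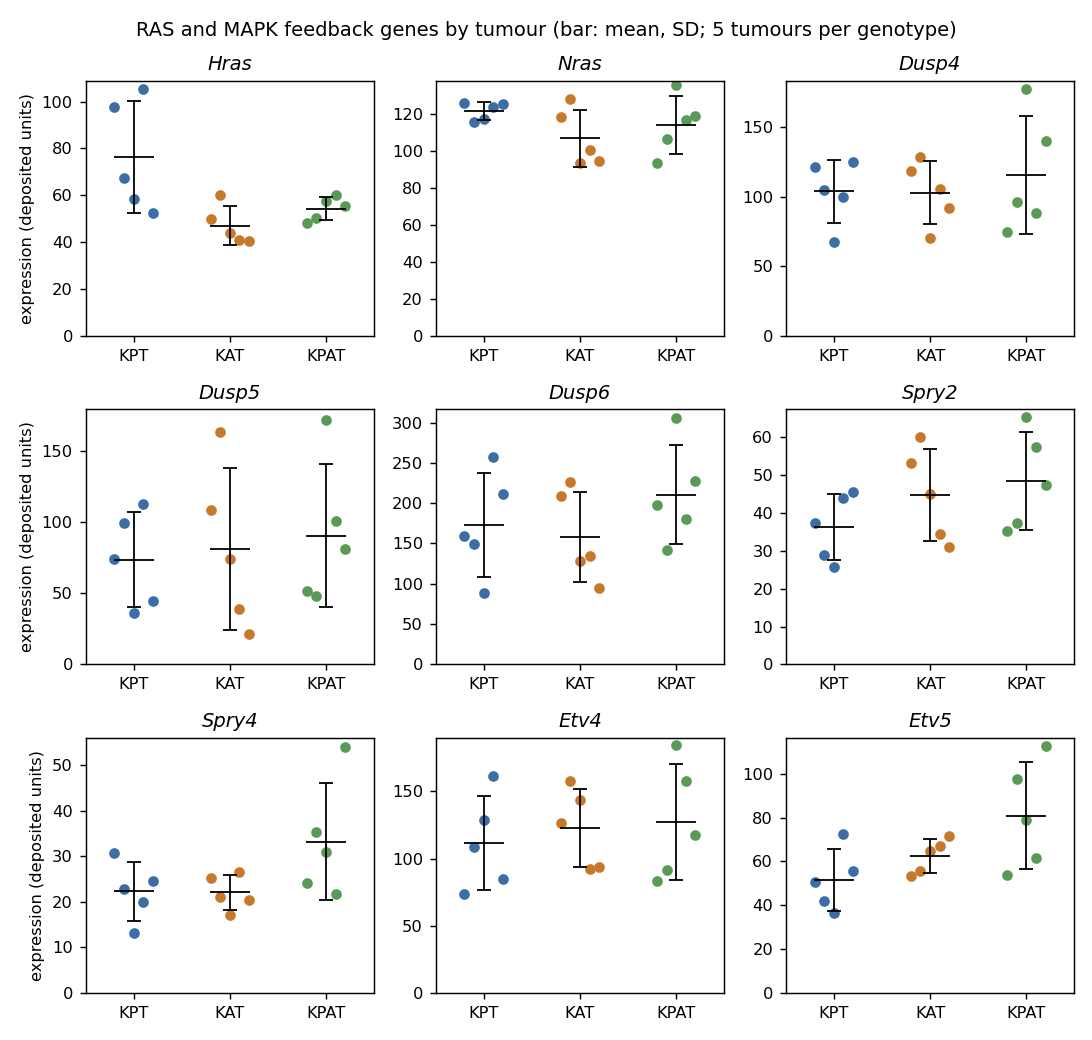
Level of each of the 9 genes (deposited units, y axis from 0) in the 5 tumours of each genotype; points are tumours and black bars the mean and SD. For every gene the 3 genotypes overlap, and Hras shows a wider spread in KPT, from 52.4 to 105.4, than in KAT or KPAT.

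Hras, on chromosome 7 (141189105 to 141194005, minus strand, GRCm38), was the only gene of the 9 that passed in any comparison, and it was lower in KAT than in KPT tumours. The KPT tumours stood at 97.8, 67.6, 58.2, 105.4 and 52.4 units, in the order of their numbers. The KAT tumours stood at 50.005, 60.3, 43.9, 40.8 and 40.3 units, of which 4 of 5 were below every KPT tumour, while KAT 2 lay inside the KPT range. The means were 47.1 ± 8.37 in KAT and 76.3 ± 23.9 in KPT (SD, n = 5 each), a log2 fold change of -0.66 with a standard error of 0.18 and a 95% interval of -1.05 to -0.27 (limma, adjusted p = 0.0162). The KPAT tumours stood at 48.3, 50.3, 57.4, 59.98 and 55.4 units (54.3 ± 4.88). All 5 were below the KPT median of 67.6, but 3 of them lay inside the KPT range. Against KPT the log2 fold change of KPAT was -0.44 with a standard error of 0.18 (adjusted p = 0.113), and against KAT it was 0.22 (interval -0.17 to 0.61, adjusted p = 0.695).

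The lower Hras level in KAT remained past the threshold when any single tumour was left out, with adjusted p from 0.00617 to 0.0423. It was lost when KPT 1 and KAT 1 were both left out (log2 fold change -0.58, adjusted p = 0.0537). With the ductal marker level of each tumour as a covariate the log2 fold change was -0.35 (adjusted p = 0.505), and with the fibroblast marker level it was -0.64 (adjusted p = 0.242). With these covariates 419 and 709 of all tested genes passed for KAT against KPT, in place of 4805. As mean log2, the ductal level was at least 14.213 in KPT, and at most 14.208 in KPAT and 14.029 in KAT. The fibroblast level was at most 11.555 in KPT, and at least 11.586 in KPAT and 12.115 in KAT. Covariate and genotype therefore cannot be told apart in these fits, here and below. For KPAT against KPT, Hras passed with DESeq2 (log2 fold change -0.51, adjusted p = 0.0489) and without KPT 5 (-0.56, adjusted p = 0.0440).

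Nras, the other RAS gene (chromosome 3, 103058285 to 103067914, plus strand), was the steadiest of the 9, with a coefficient of variation of 11.8% over the 15 tumours. The KPT tumours stood at 126, 116, 117, 124 and 125 units, a coefficient of variation of 3.93%. KAT tumours stood at 118, 128, 93.4, 101 and 94.7 units, and KPAT tumours at 93.6, 106, 136, 117 and 119. The KAT and KPAT ranges both enclosed the KPT range, so the genotypes overlapped. Relative to KPT the log2 fold change was -0.10 in KPAT and -0.20 in KAT, and KPAT stood 0.09 above KAT (adjusted p = 0.573, 0.205 and 0.799). The 95% intervals of these differences ran from -0.44 at the lowest to 0.34 at the highest.

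The ratio of Hras to Nras within a tumour does not depend on the scaling of its library. In deposited units it was 0.625 ± 0.184 in KPT (SD, n = 5), with 0.776 in KPT 1 and 0.851 in KPT 4 as the highest and 0.418 in KPT 5 as the lowest. It was 0.439 ± 0.0300 in KAT, with a range of 0.404 to 0.471, and 0.478 ± 0.0386 in KPAT, with a range of 0.423 to 0.516. KPT 5 thus lay among the KAT and KPAT tumours, and KPT 1, KPT 2 and KPT 4 above them all. No test was made of this ratio.

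The 3 phosphatase genes encode enzymes that remove phosphate from ERK: Dusp6 acts in the cytoplasm, Dusp4 and Dusp5 in the nucleus. None of them passed the test in any comparison. Dusp6 (chromosome 10, 99263231 to 99267489, plus strand) stood at 159, 149, 88.2, 257 and 212 units in the KPT tumours. It stood at 208, 226, 128, 135 and 94.8 in KAT, and at 197, 142, 305, 180.3 and 227 in KPAT. KPAT 3 was the highest tumour and KPT 3 the lowest, and all 5 KPAT tumours lay above the KAT median of 135. The log2 fold change was 0.33 for KPAT against KPT (interval -0.30 to 0.95, adjusted p = 0.473), -0.11 for KAT against KPT (-0.74 to 0.51, adjusted p = 0.802) and 0.44 for KPAT against KAT (-0.19 to 1.06, adjusted p = 0.612).

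Dusp5 (chromosome 19, 53529109 to 53542431, plus strand) varied most of the 9, 8.03-fold between its lowest and highest tumour. It stood at 73.9, 99.7, 36.5, 113 and 44.8 units in KPT, at 109, 164, 74.3, 39.2 and 21.4 in KAT and at 51.8, 47.9, 172, 101 and 81.0 in KPAT. High tumours (KAT 2 and KPAT 3) and low tumours (KAT 5 and KPT 3) occurred in different genotypes, and the means were 73.7 ± 33.4, 81.4 ± 56.9 and 90.7 ± 50.4 (SD, n = 5 each). The log2 fold changes were 0.27, -0.06 and 0.33 for KPAT against KPT, KAT against KPT and KPAT against KAT, each with a standard error of 0.51 (adjusted p = 0.754, 0.941 and 0.851). Of its 2473 exonic bases 547 (22.1%) overlap exons of AC137853.2 on the opposite strand, a gene absent from the expression table. The library kit does not mark strand, so reads of the pair cannot be told apart there. Dusp4 (chromosome 8, 34807297 to 34819894, plus strand) was 67.8 to 125 units in KPT (median 105.0), 70.5 to 128 in KAT (median 106) and 74.8 to 178 in KPAT (median 96.0). The log2 fold changes were 0.11, -0.01 and 0.12 in the same order (adjusted p = 0.788, 0.977 and 0.891).

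The Sprouty proteins act upstream, between receptors and RAS. Spry2 (chromosome 14, 105891947 to 105896819, minus strand) stood at 37.2, 29.0, 25.6, 43.8 and 45.5 units in KPT, at 53.1, 59.8, 44.8, 34.5 and 31.1 in KAT and at 35.2, 37.2, 65.2, 57.3 and 47.3 in KPAT. In KPAT 3 of 5 tumours and in KAT 2 of 5 were above every KPT tumour, and the rest overlapped. The log2 fold change was 0.41 for KPAT against KPT (interval -0.07 to 0.90, adjusted p = 0.224), 0.29 for KAT against KPT (adjusted p = 0.349) and 0.12 for KPAT against KAT (adjusted p = 0.885). Spry4, on chromosome 18 (38586247 to 38601415, minus strand), stood at 30.7, 22.8, 13.2, 19.9 and 24.5 units in KPT, at 25.3, 21.1, 17.1, 26.5 and 20.5 in KAT and at 24.04, 35.3, 31.01, 21.7 and 53.9 in KPAT. KPAT 2, KPAT 3 and KPAT 5 were above all 10 tumours of the other genotypes. The log2 fold change was 0.55 for KPAT against KPT (interval 0.02 to 1.08, adjusted p = 0.144) and 0.53 for KPAT against KAT (interval -0.01 to 1.06, adjusted p = 0.464). For KAT against KPT it was 0.02 (interval -0.51 to 0.56, adjusted p = 0.950). With the fibroblast level as a covariate the Spry4 difference between KPAT and KPT was -0.03 (adjusted p = 0.971).

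Etv5, an ETS transcription factor on chromosome 16 (22381309 to 22439719, minus strand), was the feedback gene nearest to the threshold, with higher values in KPAT than in KPT. It stood at 50.8, 42.0, 36.6, 72.8 and 55.6 units in KPT and at 53.7, 97.8, 79.1, 61.7 and 113 in KPAT. All 5 KPAT tumours were above the KPT median of 50.8, and KPAT 2, KPAT 3 and KPAT 5 were above every KPT tumour, of which KPT 4 was the highest. The means were 81.0 ± 24.5 and 51.5 ± 14.0 (SD, n = 5 each), a log2 fold change of 0.64 with a standard error of 0.21 and an interval of 0.19 to 1.09 (limma, adjusted p = 0.0501). The KAT tumours stood at 53.2, 55.7, 64.9, 67.3 and 71.7 units, between the other groups in mean (62.6 ± 7.85). The log2 fold change was 0.31 for KAT against KPT (adjusted p = 0.278) and 0.33 for KPAT against KAT (adjusted p = 0.592). Of its 31-base sequences 30.3% also occur in the processed pseudogene Gm4798, which is absent from the expression table. How the authors counted reads of these shared sequences is not known, so the count of Etv5 is uncertain by them.

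The Etv5 difference between KPAT and KPT lay on either side of the threshold depending on the analysis. It passed with edgeR (adjusted p = 0.0465), with DESeq2 (0.0231), without KPT 4 (0.0207), without KPAT 1 (0.0235) and without KPAT 4 (0.0429). It had an adjusted p of 0.120 without KPAT 2, 0.116 without KPAT 5 and 0.0997 when only the KPT and KPAT tumours were fitted. With the fibroblast level as a covariate the log2 fold change was 0.30 (adjusted p = 0.645), and with the ductal level 0.49 (adjusted p = 0.398). Etv4 (chromosome 11, 101769742 to 101785371, minus strand), the related factor, was 73.8 to 161 units in KPT (median 109), 92.3 to 158 in KAT (median 127) and 83.4 to 184 in KPAT (median 117). Relative to KPT its log2 fold changes were 0.18 in KPAT and 0.16 in KAT, and KPAT stood 0.01 above KAT (adjusted p = 0.669, 0.655 and 0.992).

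**Figure D2:**
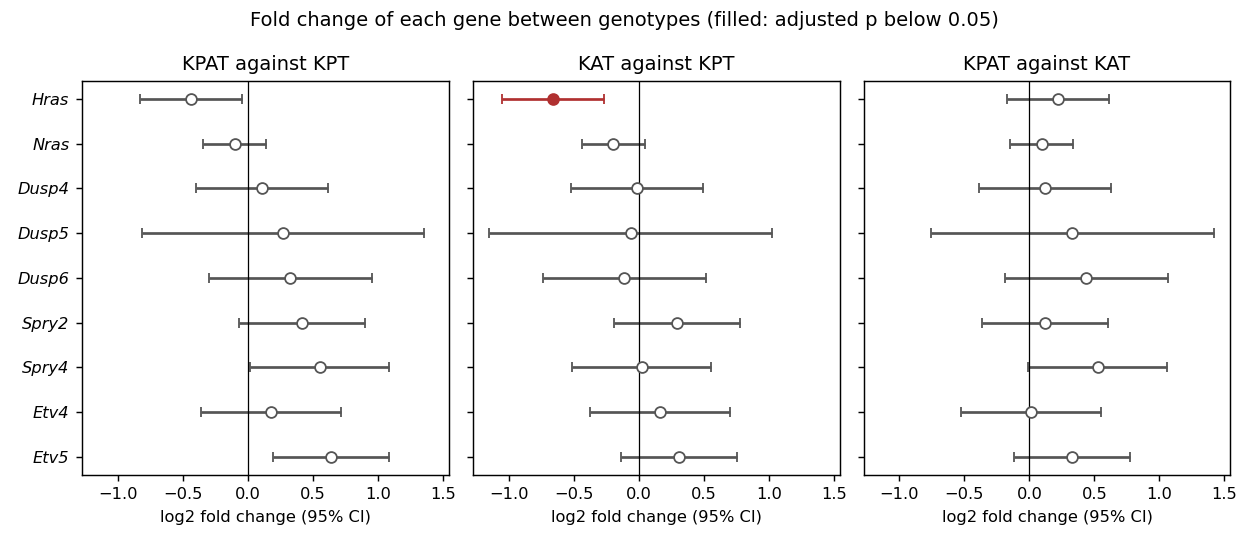
Log2 fold change of each gene (x axis) with its 95% interval, in 3 panels for KPAT against KPT, KAT against KPT and KPAT against KAT; filled points passed the test. Hras in KAT against KPT (-0.66) is the single filled point, and the interval of Etv5 in KPAT against KPT (0.19 to 1.09) excludes 0 before adjustment.

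Counted over the 9 genes, 0 passed for KPAT against KPT with limma, where 16.5% of all tested genes passed. Hras, Spry4 and Etv5 (3 of 9) had an unadjusted p below 0.05, against 32.2% of all genes, while edgeR passed 1 (Etv5) and DESeq2 passed 2 (Hras and Etv5), against 16.3% and 23.4% of all genes with those tools. For KAT against KPT 1 of 9 passed, against 28.9% of all genes. For KPAT against KAT 0 of 9 passed with limma, edgeR or DESeq2, and 0 at an unadjusted p below 0.05, where 0.0481% of all genes passed with limma, 0.042% with edgeR and 1.72% with DESeq2, and 10.8% had an unadjusted p below 0.05. The groups overlapped for each of the 9 genes in every comparison, whereas 9.97%, 17.6% and 2.72% of all genes had groups that did not overlap for KPAT against KPT, KAT against KPT and KPAT against KAT. The median log2 fold change of the 9 was 0.27, -0.01 and 0.22 in that order, and over all tested genes 0.02, 0.03 and -0.0026. Positive values were found for 7, 4 and 9 of the 9, with the KPT and KAT tumours shared between comparisons.

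Single tumours stood out across several of the genes. KPAT 3 was the highest of the 15 tumours for 6 of the 9 genes and among the top 3 for 8. KPAT 5 was the highest for Spry4 and Etv5, and KPT 4 for Hras. At the other end KPT 3 was the lowest for 5 of the 9 genes and KAT 5 for 2. Without KPAT 3 the log2 fold change of KPAT against KPT was 0.30 for Spry2 in place of 0.41, -0.0018 for Dusp5 in place of 0.27 and -0.06 for Dusp4 in place of 0.11.

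**Figure D3:**
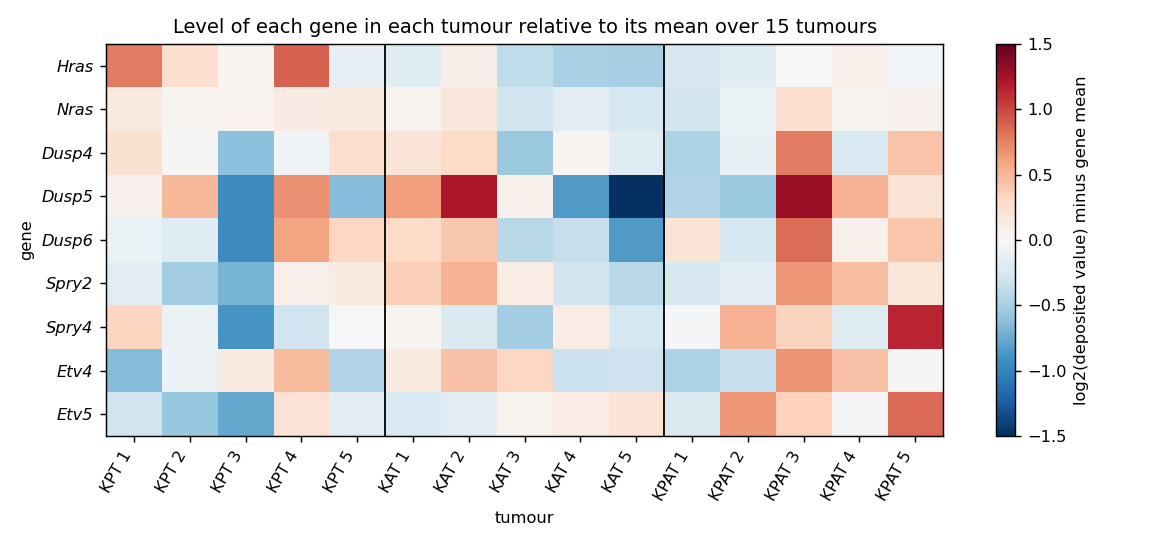
Heat map of the 9 genes (rows) in the 15 tumours (columns, lines separate genotypes); colour gives the log2 deposited value minus the mean of the gene. The column of KPAT 3 is at or above the mean for all 9 genes, and the column of KPT 3 is blue for 6 of them.

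To see which of the genes varied together, the level of each tumour was expressed as its deviation from the mean of its genotype, and the 36 pairs were correlated over the 15 tumours with permutation within genotypes. Of the 36, 33 were positive and 12 passed (two-sided permutation test, adjusted over the 36 pairs). Within the 21 pairs of the 7 feedback genes 6 passed, and the median r was 0.40. The closest pair was Dusp6 with Spry2 (r = 0.84, permutation p = 0.00064, adjusted p = 0.0101, Spearman rho = 0.83), with r = 0.82 without KPT 3 and KPT 4, the 2 tumours farthest from the median of Dusp6. Among 16647 other genes Spry2 ranked 26 in its correlation with Dusp6, and Dusp6 ranked 46 in its correlation with Spry2. Ranks within pairs that passed reached 1483, for Nras in its correlation with Hras, where 8.91% of genes were at or above it. Dusp5 also followed Spry2 (r = 0.78, adjusted p = 0.0186, rho = 0.85) and Dusp6 (r = 0.77, adjusted p = 0.0186, rho = 0.78), with r of 0.70 and 0.67 without KAT 2 and KAT 5. Within single genotypes, as a description over 5 tumours each, r of Dusp5 with Spry2 was 0.26 in KPT, 0.99 in KAT and 0.97 in KPAT. The r of Dusp6 with Spry2 was 0.92 in KPT and KAT and 0.67 in KPAT, and that of Nras with Dusp5 was 0.04 in KPT, 0.80 in KAT and 0.90 in KPAT. These differences between genotypes were not tested. The summed level of the 5 endocrine markers was 148, 527 and 574 in KAT 3 to KAT 5, against 29.3 and 13.8 in KAT 1 and KAT 2. In KPAT 1 and KPAT 2 it was 257 and 247, against 2.62 to 37.5 in the other KPAT tumours. The KAT and KPAT tumours with the higher sums were the lowest of their genotype for Nras, Dusp5 and Spry2. For Dusp6 this did not hold in KPAT. The part of endocrine cells in these correlations was not tested.

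Nras correlated with Spry2 (r = 0.80, adjusted p = 0.0101, rho = 0.77) and with Dusp4 (r = 0.80, adjusted p = 0.0101, rho = 0.79), at 0.75 and 0.76 without KAT 2 and KPAT 1. Hras correlated with Dusp5 (r = 0.70, adjusted p = 0.0186, rho = 0.75), and r was 0.77 without KPT 1 and KPT 4. With the other 6 feedback genes Hras did not pass (r from 0.18 to 0.54, lowest adjusted p = 0.118). The 3 pairs of Dusp5, Dusp6 and Spry2 and these 3 pairs remained past the threshold when any single tumour was left out. Over the undivided values, with the genotype means left in, r fell to 0.48 for Nras with Spry2 and 0.49 for Hras with Dusp5, both with an adjusted p of 0.154, while Spry4 with Etv5 passed (r = 0.70, adjusted p = 0.0238). In all, 10 of the 36 pairs passed over the undivided values, and 10 by Spearman's rho on the deviations.

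The other 6 pairs that passed were Nras with Dusp5 (r = 0.72), Dusp4 with Spry4 (0.70), Dusp4 with Dusp6 (0.70), Dusp5 with Etv4 (0.69), Nras with Dusp6 (0.68) and Hras with Nras (0.50). Each of them had an adjusted p above 0.05 without at least 1 of the tumours KPT 1 to KPT 4, KAT 1 to KAT 3, KPAT 1, KPAT 3 or KPAT 4. The count of 12 was 7 without KAT 2, 8 without KPAT 1 or KPAT 3 and 15 without KPT 5. On the deviations Etv5 was in no pair that passed, its highest r being 0.60 with Spry4 (adjusted p = 0.118, rho = 0.45, r = 0.34 without KPT 3 and KPAT 5). The ETS genes Etv4 and Etv5 had an r of -0.02, and the lowest of all pairs was Spry4 with Etv4 (r = -0.39, adjusted p = 0.337). Values of 1 tumour share a library and its scaling, and 6.49% to 13.7% of all tested genes had an r of at least 0.5 with a given gene of the 9.

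**Figure D4:**
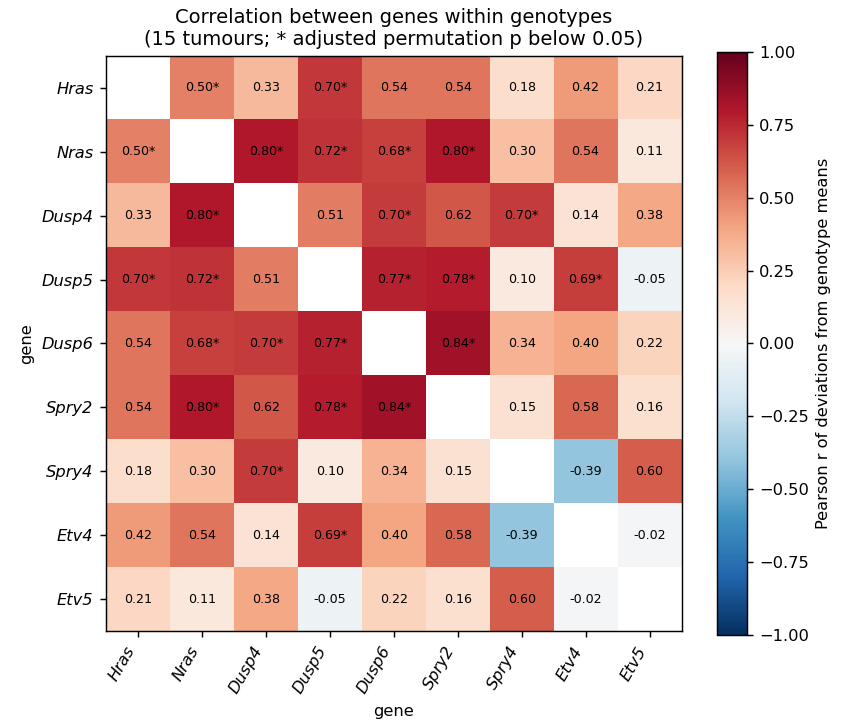
Pearson r between each pair of the 9 genes over 15 tumours after removal of genotype means; an asterisk marks an adjusted permutation p below 0.05. The block of Nras, Dusp4, Dusp5, Dusp6 and Spry2 is red, with 0.84 for Dusp6 and Spry2, and the row of Etv5 holds no asterisk.

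The genes whose level was most like each of the 9 over the 15 tumours were taken from 11088 well expressed genes by Pearson r, as a description. For Hras they were Rab2a (r = 0.93), a small GTPase of the Golgi route, and Nsmce1 (0.93). For Dusp5 they were Tgfa (0.92), a ligand of the EGF receptor, and Rab7 (0.89). Nras was followed most closely by Pdcl3 (0.95) and Actr2 (0.93), Dusp4 by Plekha2 (0.82) and Ap2b1 (0.82), and Dusp6 by Gmcl1 (0.91) and Fam207a (0.88). Spry2 was followed by Frmd8 (0.91) and Tmem168 (0.89), and Etv4 by Tnfrsf22 (0.91) and Lsm8 (0.91). Etv5 and Spry4 shared Nde1 (0.91 and 0.85), beside Txndc5 (0.91) for Etv5 and Ssr1 (0.88) for Spry4.

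Around the 9 genes, 9 lists held 122 other genes of the RAS to ERK route, of which 121 were tested. For KPAT against KPT 18 were higher and 5 lower, and for KAT against KPT 25 were higher and 14 lower, where 9.13% and 7.4% of all genes were higher and lower in the former and 15.6% and 13.3% in the latter. For KPAT against KAT 0 passed with limma and 13 of 121 had an unadjusted p below 0.05, near the 10.8% of all genes. There edgeR passed 0 and DESeq2 3, where DESeq2 passed 1.72% of all genes. The median log2 fold change of the 121 was 0.06, 0.07 and -0.02. The named genes are those with the smallest p in each list and direction.

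Upstream of RAS, 3 of 14 exchange factors and adaptors were higher and 0 lower in KPAT than in KPT, and 4 and 0 in KAT. Rasgrp1, which loads RAS with GTP in lymphocytes, was 2.52 ± 0.337 units in KPT, 17.99 ± 6.46 in KAT and 9.53 ± 3.27 in KPAT, with log2 fold changes against KPT of 2.75 and 1.83 (adjusted p = 8.73e-05 and 0.00235). Of 13 growth factor receptors and ligands 3 were higher and 2 lower in KPAT, and 4 and 3 in KAT. Erbb2, a receptor of the EGF receptor family, fell by 0.84 on the log2 scale in KAT (141 ± 23.7 against 252 ± 43.1, adjusted p = 0.00121) and by 0.70 in KPAT (154 ± 23.6, adjusted p = 0.00758). Met, the receptor of hepatocyte growth factor, fell by 0.68 in KAT (79.8 ± 3.08 against 129 ± 15.3, adjusted p = 0.000319). Fgfr1, a fibroblast growth factor receptor, rose by 1.56 in KAT and 1.39 in KPAT (51.1 ± 14.2 in KPT, adjusted p = 0.000571 and 0.00344).

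At the level of RAS itself, 1 of 14 relatives was higher and 1 lower in KPAT, and 2 and 3 in KAT. Rap2a, a RAS-like GTPase, rose by 0.73 in KAT and 0.61 in KPAT on the log2 scale (48.9 ± 4.87 units in KPT, 81.1 ± 8.89 in KAT, 74.8 ± 9.91 in KPAT, adjusted p = 0.000662 and 0.00499). Rras2, a relative with transforming activity, fell by 0.39 in KAT and 0.55 in KPAT (adjusted p = 0.0136 and 0.00534). Of 10 GTPase-activating proteins, which switch RAS off, 3 were higher in KAT and 1 in KPAT, and 0 were lower. Rasa1 rose by 0.72 in KPAT (adjusted p = 0.0220), with an adjusted p of 0.0555 without KPT 1 and 0.0511 without KPAT 2. Of 9 genes of RAS processing and turnover 2 were lower in KAT, among them Fnta, the shared subunit of farnesyltransferase (64.0 ± 3.60 against 97.6 ± 16.7 units, log2 fold change -0.59, adjusted p = 0.00329), and 1 was higher in KPAT.

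In the kinase cascade 0 of 14 genes passed for KPAT against KPT with limma, 1 had an unadjusted p below 0.05, and edgeR and DESeq2 passed 0 and 1. In KAT 2 of 14 were lower: Shoc2, a scaffold that activates RAF (71.7 against 99.1 units, log2 fold change -0.48, adjusted p = 0.00272), and Pebp1, which binds and inhibits RAF (181 ± 11.9 against 222 ± 10.4 units, -0.30, adjusted p = 0.0146). Of 13 ERK substrate kinases and ETS partners 2 were higher and 3 lower in KAT, and 1 and 2 in KPAT. Rps6ka1, a ribosomal S6 kinase activated by ERK, fell by 0.77 in KAT and 0.73 in KPAT (adjusted p = 0.00685 and 0.0162). Elk3, an ETS factor, rose by 0.52 in KAT (123 ± 15.9 against 85.8 ± 12.1 units, adjusted p = 0.0140).

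Of 16 other feedback inhibitors of the cascade that were tested, 5 were higher and 1 lower in KAT, and 4 and 0 in KPAT. Spry1, another Sprouty gene, rose by 0.60 in KAT and 0.58 in KPAT (49.0 units in KPT, 76.1 in KAT, 73.7 in KPAT, adjusted p = 0.0105 and 0.0202). Il17rd, which encodes the inhibitor Sef, rose by 1.11 and 1.04 (18.9 ± 5.78 units in KPT, 40.0 ± 6.18 in KAT, 39.1 ± 12.1 in KPAT, adjusted p = 0.00310 and 0.00943). Errfi1, an inhibitor of the EGF receptor, fell by 0.71 in KAT (219 ± 51.1 against 356 ± 70.0 units, adjusted p = 0.00811). Of 18 other genes induced by ERK 5 were higher in KAT and 4 in KPAT, and 0 were lower. Their log2 fold change against KPT was positive for 16 in KPAT (median 0.47) and for 12 in KAT (median 0.26). An unadjusted limma p below 0.05 was found for 11 in KPAT and 7 in KAT, against 32.2% and 41.2% of all genes. Plau, the urokinase gene, rose by 1.98 in KAT and 1.68 in KPAT (27.4 ± 11.2 units in KPT, 109 ± 44.4 and 91.8 ± 52.5, adjusted p = 0.00181 and 0.00943). Epha4, an ephrin receptor, rose by 1.79 and 2.22 (adjusted p = 0.00364 and 0.00326).

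The fibroblast and ductal markers given above moved with these calls, and so did some markers of other cell types. Of 6 macrophage markers 4 were higher in KAT than in KPT (Csf1r, Adgre1, C1qa and C1qb) and 2 in KPAT, and their summed level was 373 to 545 in KPT, 680 to 1414 in KAT, 465 to 864 in KPAT. Of 6 endothelial markers 4 were higher in KAT (Kdr, Tie1, Tek and Erg) and 2 in KPAT, with summed levels of 106 to 210 (KPT), 145 to 438 (KAT) and 163 to 313 (KPAT). Of 5 smooth muscle and pericyte markers 3 were higher in KAT and 1 in KPAT, and of 6 proliferation genes 2 (Cdk1 and Birc5) were lower in KAT. Of the T cell markers 1 of 4 tested passed as higher in KPAT than in KPT (Trbc2, log2 fold change 1.88) and 0 in KAT. Cd3d (-1.29), Cd3g (-0.47) and Cd2 (-0.14) were lower in KPAT without passing, and the median of the list was -0.30. In KAT all 4 had positive log2 fold changes against KPT, with a median of 1.59. Of 4 B cell markers 1 was higher in KAT (Ms4a1). In KPAT 0 of them passed and 0 had a positive log2 fold change against KPT (median -1.17). Among 5 endocrine markers 1 was higher in KAT (Chga, log2 fold change 3.32) and 0 passed in KPAT. Among 5 intestine markers 1 was lower in both (Cdx2, -5.45 in KAT and -5.00 in KPAT). Among 5 neutrophil markers 1 was lower in both (Retnlg) and 1 higher in KAT (Csf3r). Acinar and Schwann cell markers did not pass. The part of these other cell types in the results was not tested. Over the named pathway genes, 45 calls were made against KPT, of which 5 passed with the ductal level as a covariate and 3 with the fibroblast level. For KPAT against KPT, counted over all tested genes, 58 passed with the ductal and 268 with the fibroblast covariate, in place of 2752. Neither covariate overlapped between KPT and the other genotypes, so covariate and genotype cannot be told apart. Why these calls were lost was not tested. Of the pathway calls named in these paragraphs, leaving out any single tumour ended only that of Rasa1. Over all 45 calls, which include genes not named there, 38 were kept without KPT 1 and 44 without KPAT 4, the extremes. Lztr1, higher in KPAT than in KPT, passed in only 4 of 15 such fits. The marker calls were not refitted in this way.

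**Figure D5:**
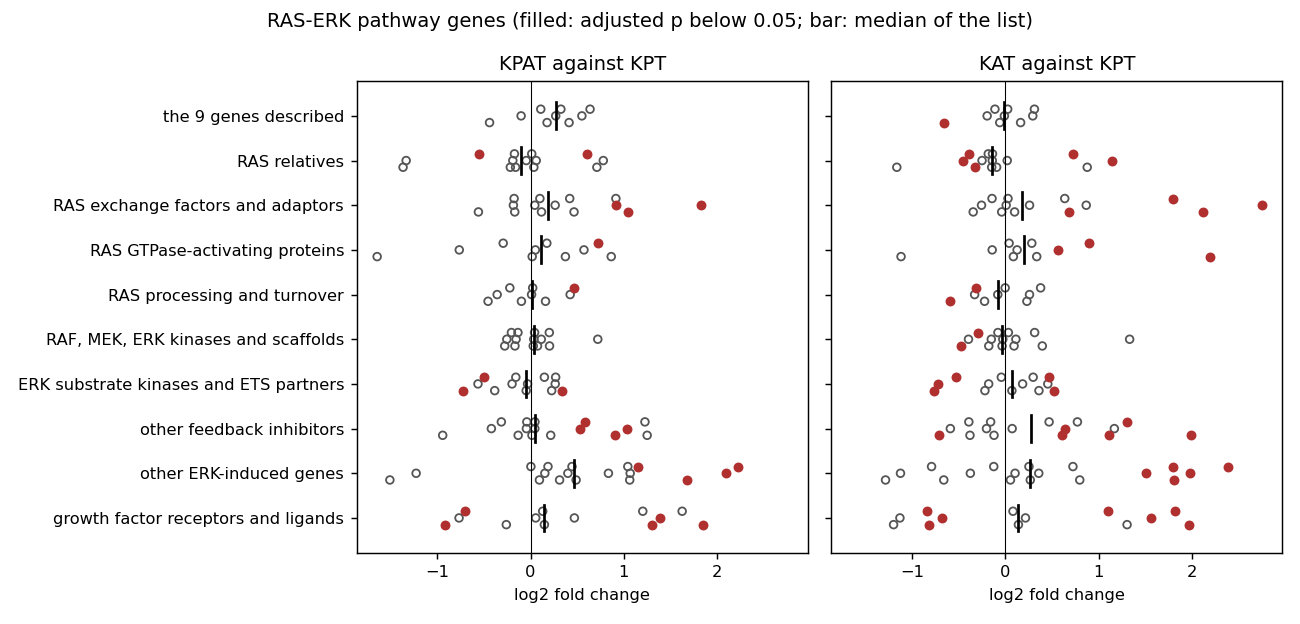
Log2 fold change (x axis) of the 9 genes and of the genes of 9 pathway lists, for KPAT against KPT (left) and KAT against KPT (right); each point is a gene, filled where it passed the test, and the bar is the median of the list. For KAT against KPT filled points lie on both sides of 0 in 4 of the 9 lists, and the row of the 9 genes holds 1 filled point, Hras in KAT.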

How the data were processed

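Whole tumour RNA was purified with RNeasy midi columns, made into libraries with the TruSeq RNA kit and run on a HiSeq4000, per the labels' protocols. That kit is known as one without strand marking. The submitters' processing notes name HISAT2 2.0.4 and the mouse build mm10 (GRCm38). Which tool counted reads, how it treated strand and how counts were scaled is not given in the sources used here. From their steps, the deposited signal values appear to be whole reads over 1 factor for each library (100% came out whole within 0.01). The KT group is not analysed here, nor are an allele shared by all groups and its gene, and a further gene of the pathway lists is not reported by name.

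Deposited values were multiplied by 19.478 for every library, and log2(value + 1) was fitted by limma (version 3.58.1, under R 4.3.3) over the 15 tumours, with 1 mean for each genotype and a variance trend, two-sided, for the 16648 genes with a mean of at least 10. Adjustment was by Benjamini-Hochberg over those genes at 0.05. A fold change is on this log2 scale. The counts recovered from the deposited signal served edgeR 4.0.16 and DESeq2 1.42.0 as alternatives. Correlations used 100000 permutations within genotypes in Python 3.11.15 with numpy 2.4.6. Fits and correlations were tested on simulated data. Other alternatives were the pseudocount, the minimum, the scaling, array weights, marker covariates, the replicate number as a block and leaving out tumours. Gene positions are from GENCODE vM21 (GRCm38), and copies were sought by shared 31-mers. Named genes were the 9, Trp53 and Cdkn2a, up to 2 passing genes with the smallest p per pathway list, comparison and direction, and the 2 genes most like each of the 9 among those with a mean of at least 100. The 9 genes, the lists and the tests were chosen with earlier results of these data known. The labels number the tumours without saying that each came from its own mouse, so p-values measure the spread between these samples.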

Additional observations from a re-analysis of the deposited data

Results flagged for a closer look

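Of 120 groups of 5 tumours examined (the 9 genes, Trp53, Cdkn2a and the named pathway genes in each genotype), 6 held a tumour set apart from the other 4, and chance alone flags about 1 in 20 such groups. None of the 6 was a group of the 9 RAS and feedback genes. Rasgrp1 stood at 1.94 units in KPT 4, below 2.54 to 2.76 in the other KPT tumours. Rit1, a RAS-like GTPase, stood at 57.2 in KPT 1, above 34.8 to 39.2, and at 43.3 in KPAT 4, above 33.1 to 34.9. Cdkn2a stood at 216 in KPT 3, below 304 to 335. Rasa1 stood at 115 in KAT 2, above 74.0 to 84.2. Spry1 stood at 113 in KAT 3, above 62.6 to 72.9.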

How the results depend on the processing

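For the 27 fold changes of the 9 genes, 31 alternatives each gave 837 values, of which 780 kept both direction and side of the threshold, 45 changed sign, 3 fell short of the threshold and 9 newly passed it. Every value of these genes that changed sign belonged to a difference that did not pass. The count of passing genes for KPAT against KPT, 0 in the text, was 1 with a pseudocount of 8, a minimum mean of 50 or edgeR, 2 with DESeq2, and 0 to 1 with single tumours left out. For KAT against KPT the count of 1 was 0 with the ductal covariate, the fibroblast covariate or without KPT 1 and KAT 1. For KPAT against KAT it was 0 throughout. The 12 correlated pairs were 7 to 15 with single tumours left out. The replicate numbers did not pair the samples throughout: same-numbered tumours of different genotypes had deviation correlations of -0.21 to 0.25, 5 of 15 pairs above 0.1. In 4 of the 15 pairs, all with a KPT tumour, that tumour correlated best with its own number in the other genotype. KPT 1 did so with both KAT 1 (0.25) and KPAT 1 (0.22). The best match was sought from the first genotype of each pair only, so never from KPAT. With the replicate number as a block Hras in KAT against KPT had an adjusted p of 0.0262 and Etv5 in KPAT against KPT 0.0599, and the counts of passing genes stayed at 0, 1 and 0. Over all tested genes, the 2752 that passed for KPAT against KPT were 1811 when only those groups were fitted, 1686 without KPAT 2 and 1735 without KPT 3, KAT 2 and KPAT 5. The 8 for KPAT against KAT were 15 with only those groups, 36 without KAT 2, 17 without KPT 3, KAT 2 and KPAT 5, 284 with DESeq2 and 515 with array weights.

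Sign changes by setting were as follows, and their cause was not tested. For KPAT against KPT, the fibroblast covariate gave a log2 fold change of 0.022 for Nras, -0.012 for Dusp4 and -0.033 for Spry4, the ductal covariate -0.22 for Etv4, and leaving out KPT 3, KAT 2 and KPAT 5 -0.12 for Dusp4. Without single tumours, Dusp4 ran from -0.064 to 0.25 and Dusp5 from -0.0018 to 0.46. For KAT against KPT, the ductal covariate gave 0.38 for Dusp4, 0.15 for Dusp5, 0.17 for Dusp6 and -0.36 for Etv4. The fibroblast covariate gave 0.22 for Dusp5, -0.61 for Spry4, -0.060 for Etv5 and -0.10 for the RAS relative Rerg (1.15 and passing without the covariate, but not past the threshold without KPT 3, KPT 5, KAT 3 or KAT 5). In the same comparison edgeR gave 0.0079 for Dusp4 and 0.16 for Dusp5, DESeq2 0.13 for Dusp5 and -0.019 for Spry4, array weights -0.10 for Etv4, and leaving out KPT 3, KAT 2 and KPAT 5 -0.14 for Spry4. Without single tumours, Dusp4 ran from -0.16 to 0.12, Dusp5 from -0.40 to 0.34, Dusp6 from -0.33 to 0.055 and Spry4 from -0.15 to 0.15. For KPAT against KAT, the fibroblast covariate gave -0.045 for Etv4. Without single tumours, Dusp4 ran from -0.054 to 0.26, Dusp5 from -0.067 to 0.67, Spry2 from -0.00031 to 0.24 and Etv4 from -0.14 to 0.15. With 5 tumours a group, the 95% interval for KPAT against KPT was -0.82 to 1.36 for Dusp5 and -0.34 to 0.14 for Nras, so a smaller difference could be detected for Nras.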
